A study of Arabidopsis thaliana with 42 samples.

Results

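SMALL AUXIN UP RNA (SAUR) genes of Arabidopsis thaliana were examined on 42 Affymetrix ATH1 arrays. The members were the probe sets whose locus column names 1 of 54 listed SAUR loci, and 42 of the 22810 probe sets on the array met that rule. They cover 42 of the 54 loci. The other 12 loci (SAUR2 to SAUR5, SAUR19 to SAUR22, SAUR24, SAUR26, SAUR29 and SAUR53) were not analysed here. The SAUR62 probe set (AT1G29430) also names AT5G27780, the SAUR30 probe set (AT5G53590) also names AT5G53588, and the SAUR23 probe set (AT5G18060) carries the suffix for probes that can match related transcripts, so these 3 cannot be given to 1 gene with certainty.

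The samples were whole Columbia seedlings, 7 days old, grown in liquid medium with a flask for each sample. The 35S::GR-REV and 35S::KAN1-GR lines make REVOLUTA (REV) or KANADI1 (KAN1) joined to a glucocorticoid receptor (GR) domain that binds steroid and keeps the fusion in the cytoplasm until dexamethasone (DEX) is added. Wild type received the same 50 µM DEX as the lines and carries neither transgene. The 14 groups of 3 arrays were GR-REV and its day 1 wild type at 0, 30, 60 and 120 min, and KAN1-GR and its day 2 wild type at 0, 30 and 60 min. The 0 min samples were frozen before DEX, and no later sample was left without DEX. Within a line, an effect of DEX therefore cannot be told apart from one of elapsed time or handling. The 35S promoter drives the fusions in most tissues, so the measurements average over cells that do not normally hold REV or KAN1, and the labels give no second line for either construct. Because each line has its own day, line and day can be told apart only through the wild type of that day.

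SAUR proteins are small, short-lived proteins, and many of their genes are switched on within minutes by auxin, brassinosteroid, heat or shade. Members of the SAUR19 subfamily bind and inhibit PP2C.D phosphatases, which otherwise remove an activating phosphate from plasma membrane H+-ATPases. The active pump acidifies the wall and cells expand. REV is a class III HD-ZIP transcription factor of the upper (adaxial) side of leaves, and KAN1 is a GARP-family factor of the lower (abaxial) side that is known mainly as a repressor.

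Values are log2, relative to the median of the 6 untreated wild-type arrays for each probe set, so they show differences between samples and no absolute level. A response is the log2 change of a line from 0 min less the change of the wild type of its day. Of the 42 members, 29 have an ANOVA p-value in the deposited table and were tested, and 13 were not (SAUR7, SAUR10, SAUR25, SAUR27, SAUR28, SAUR33, SAUR34, SAUR38, SAUR45, SAUR52, SAUR54, SAUR70 and AT1G29490, named SAUR68). The criterion the authors used for that p-value is not given in the sources used here, so counts over the 29 describe those probe sets and not the family. The listed loci were also chosen with earlier results of these data known. That choice can raise their share of calls above that of all probe sets. The name SAUR67 is used here for AT1G29510.

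The array SD of the centred values was 0.239 to 0.430 in wild type and 0.533 to 0.609 in GR-REV at all times. In KAN1-GR it was 0.350 to 0.370 before DEX and 0.460 to 0.546 after. The transgene's own probe set was higher by 4.10 for REV in GR-REV and by 9.02 for KAN1 in KAN1-GR at 0 min (limma, adjusted p = 1.15e-22 and 4.16e-25). All 3 root hair markers (EXPA7, COBL9, PRP3) were lower in GR-REV than in its wild type at 0 min (-0.86, -1.17 and -2.15), and 1 of 3 in KAN1-GR (EXPA7, -1.56). Of 3 shoot markers, CA1 was lower in GR-REV (-0.61). None of the 6 markers passed the test in a GR-REV or KAN1-GR response (0 of 6 at each time, limma). Over all tested probe sets 1.38% to 6.84% passed in these responses, so 0 of 6 says little. The chloroplast gene psaA read -4.21 on all 3 day 1 wild-type arrays and -4.21, -4.23 and 3.84 on the GR-REV arrays at 0 min, against 1.35 to 6.23 on the other arrays. Wild-type day 2 at 30 min had the lowest correlation between arrays of a group (r = 0.161). The part of these differences in the SAUR results was not tested.

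SAUR genes passed the threshold in the 30 min response of each line, mostly downward in KAN1-GR. In KAN1-GR, SAUR1, SAUR14, SAUR16, SAUR36, SAUR78 and SAUR6 fell and SAUR32 rose, at 30 min and again at 60 min. That is 7 of 29 tested members at 30 min, where 2.4% of all 16129 tested probe sets passed (0.694% higher, 1.71% lower), and 7 of 29 at 60 min, where 6.84% passed (2.88% higher, 3.96% lower). Calls are from limma with Benjamini-Hochberg adjustment over all tested probe sets. In GR-REV, SAUR14 and SAUR15 rose at 30 min and SAUR6, SAUR51 and SAUR71 fell, which is 5 of 29 against 1.38% of all tested probe sets (0.862% higher, 0.521% lower). At 60 min 9 of 29 passed against 4.36% (1.75% higher, 2.61% lower), with SAUR9, SAUR67, SAUR15, SAUR14 and SAUR65 higher and SAUR71, SAUR51, SAUR12 and SAUR6 lower. At 120 min 0 of 29 passed by limma against 3.84%, and 6 had an unadjusted p under 0.05. With 1 array left out, the 30 min count was 2 to 5 in GR-REV and 7 to 8 in KAN1-GR. Under quantile normalisation, which gives every array the same distribution, the GR-REV calls that stayed were SAUR6 at 30 min and SAUR6 and SAUR51 at 60 min. In KAN1-GR those lost were SAUR36 at 30 min and SAUR78 and SAUR14 at 60 min.

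In these bulk seedlings, fewer cells expressing a gene and less RNA per cell cannot be told apart. In KAN1-GR the median response of the 29 members was -0.32 at 30 min and -0.66 at 60 min, and the median of all tested probe sets was 0.02 and -0.00064. In GR-REV the members' medians were 0.11, 0.18 and -0.05 at 30, 60 and 120 min, beside 0.0020, -0.0070 and -0.05 for all. With all 22746 probe sets tested, 4, 9 and 0 of the 42 members passed in GR-REV (0.914%, 2.65% and 2.25% of all) and 7 and 7 in KAN1-GR (1.59% and 4.44%). None of the 13 untested members was among them, and their responses lay between -0.64 and 0.42 in GR-REV and between -0.14 and 0.21 in KAN1-GR.

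**Figure D1:**
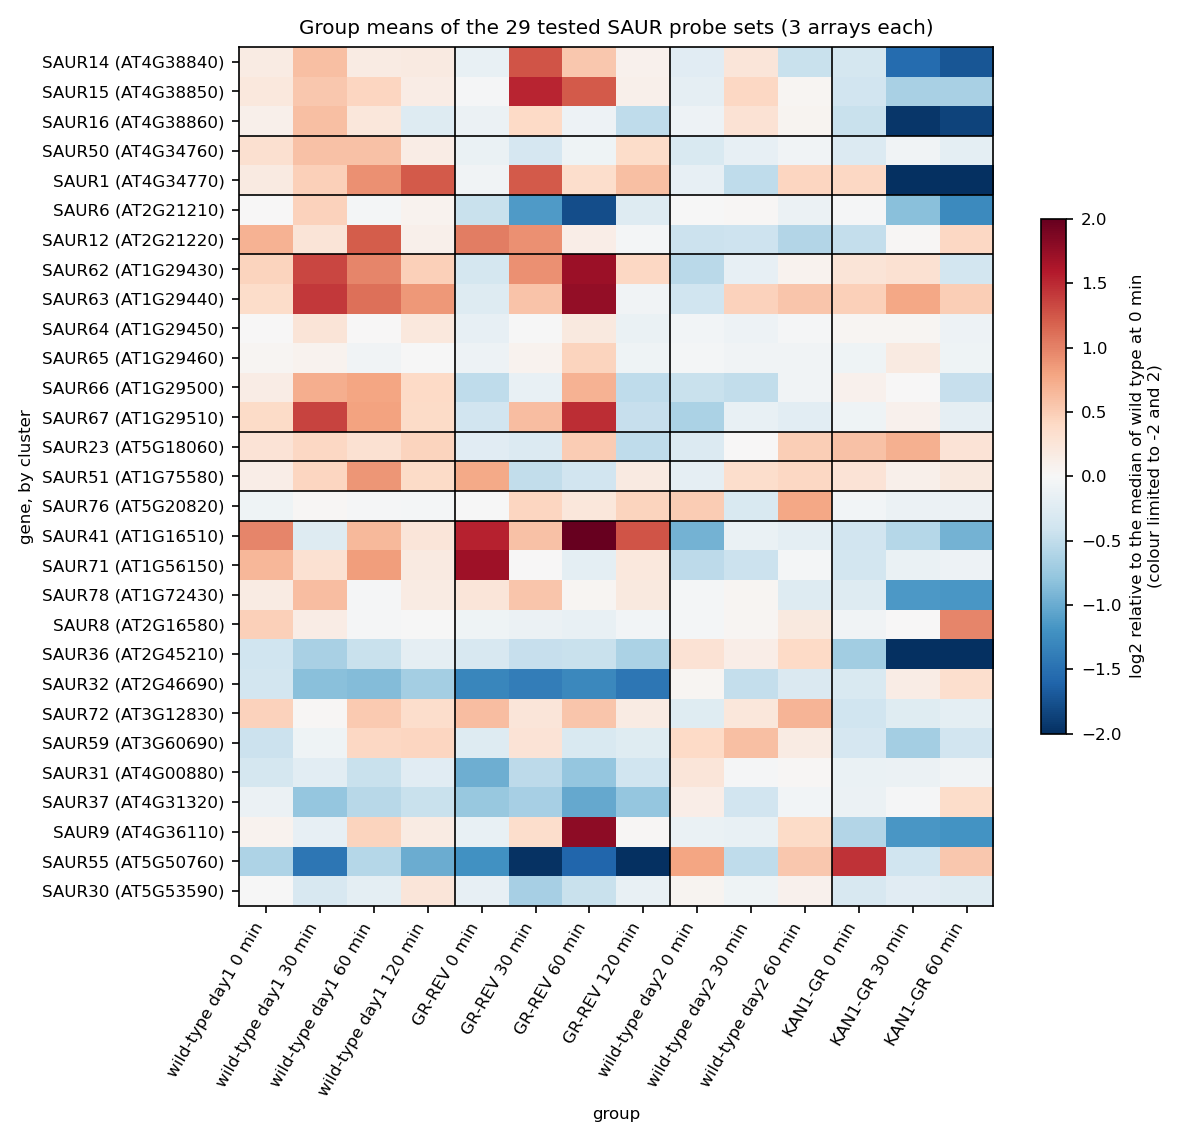
Group means (3 arrays each) of the 29 tested SAUR probe sets in the 14 groups, as log2 relative to untreated wild type, with genes ordered by cluster and colour limited to -2 and 2. SAUR14, SAUR16, SAUR1 and SAUR36 are low in both KAN1-GR groups given DEX, while SAUR9, SAUR62, SAUR63, SAUR65 and SAUR67 are highest in GR-REV at 60 min.

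The neighbouring genes SAUR14, SAUR15 and SAUR16 (AT4G38840, AT4G38850, AT4G38860) on chromosome 4 had a higher response in GR-REV than in KAN1-GR at both times. SAUR15 is the long-known auxin-inducible SAUR-AC1, and SAUR14 and SAUR16 are known as light-induced in cotyledons. SAUR14 read -0.07, -0.33 and -0.04 in GR-REV before DEX and 1.23, 1.37 and 1.17 at 30 min. It then read 0.58, 0.47 and 0.56 at 60 min and 0.12, 0.06 and 0.10 at 120 min. In KAN1-GR it read -0.21, -0.47 and -0.37 before DEX, -1.88, -1.35 and -1.42 at 30 min and -1.61, -1.74 and -1.77 at 60 min. The GR-REV arrays at 30 min lie above every wild-type array of day 1, which reached 0.74, and the KAN1-GR arrays with DEX lie below every wild-type array of day 2, whose lowest was -0.63.

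The SAUR14 response was 0.97 (SE 0.16, adjusted p = 0.000502) in GR-REV at 30 min and 0.68 (adjusted p = 0.00919) at 60 min. The first is a 1.96-fold rise relative to the change of wild type. In KAN1-GR it was -1.67 (SE 0.16, adjusted p = 2.94e-08) at 30 min and -1.14 (adjusted p = 8.49e-06) at 60 min. The first is a 3.18-fold fall relative to the change of wild type. Day 2 wild type rose at that time, from -0.12, -0.37 and -0.19 to 0.33, 0.18 and 0.21, and that rise is part of it. The difference between the lines was 2.64 (SE 0.23, adjusted p = 2.58e-09) at 30 min and 1.82 (adjusted p = 1.54e-06) at 60 min. Within GR-REV the response at 120 min was lower than at 30 min by a difference of -0.74 (adjusted p = 0.0103).

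SAUR15 rose in GR-REV and did not pass the test in KAN1-GR. In GR-REV it read -0.11, 0.01 and 0.02 before DEX, 1.299, 1.39 and 1.90 at 30 min, 1.61, 0.90 and 1.17 at 60 min and 0.16, 0.08 and 0.07 at 120 min. In day 1 wild type it read 0.11, 0.20 and 0.31 at 0 min, 0.16, 0.65 and 0.79 at 30 min and 0.26, 0.93 and 0.08 at 60 min. The groups separate at 30 min and overlap at 60 min, where the lowest GR-REV array (0.90) is under the highest wild-type array (0.93). The response was 1.23 (SE 0.28, adjusted p = 0.0128) at 30 min and 1.04 (adjusted p = 0.0217) at 60 min, against -0.85 and -0.48 in KAN1-GR. Without wild-type day 1 replicate 1 or GR-REV replicate 3 at 30 min the first call was lost, with adjusted p up to 0.0603, and the 60 min call was lost in 5 of 12 such fits (up to 0.0905).

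SAUR16 showed the reverse: it fell in KAN1-GR and had a GR-REV response of 0.02 at 30 min and -0.11 at 60 min, neither past the threshold. In KAN1-GR it read -0.34, -0.45 and -0.52 before DEX, -1.58, -2.54 and -1.72 at 30 min and -1.92, -1.94 and -1.71 at 60 min. Every array with DEX lies more than 1 log2 unit below every KAN1-GR array without it. The day 2 wild type stayed between -0.31 and 0.45 throughout. The response was -1.90 (SE 0.30, adjusted p = 0.000125) at 30 min and -1.57 (adjusted p = 0.000619) at 60 min. Under quantile normalisation, which gives every array the same distribution, the GR-REV calls for SAUR14 and SAUR15 were lost (adjusted p = 0.235 and 0.369 at 30 min), as was SAUR14 in KAN1-GR at 60 min (adjusted p = 0.164). The 4 calls for SAUR14 and SAUR16 in KAN1-GR otherwise stood in every fit that left out 1 array.

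**Figure D2:**
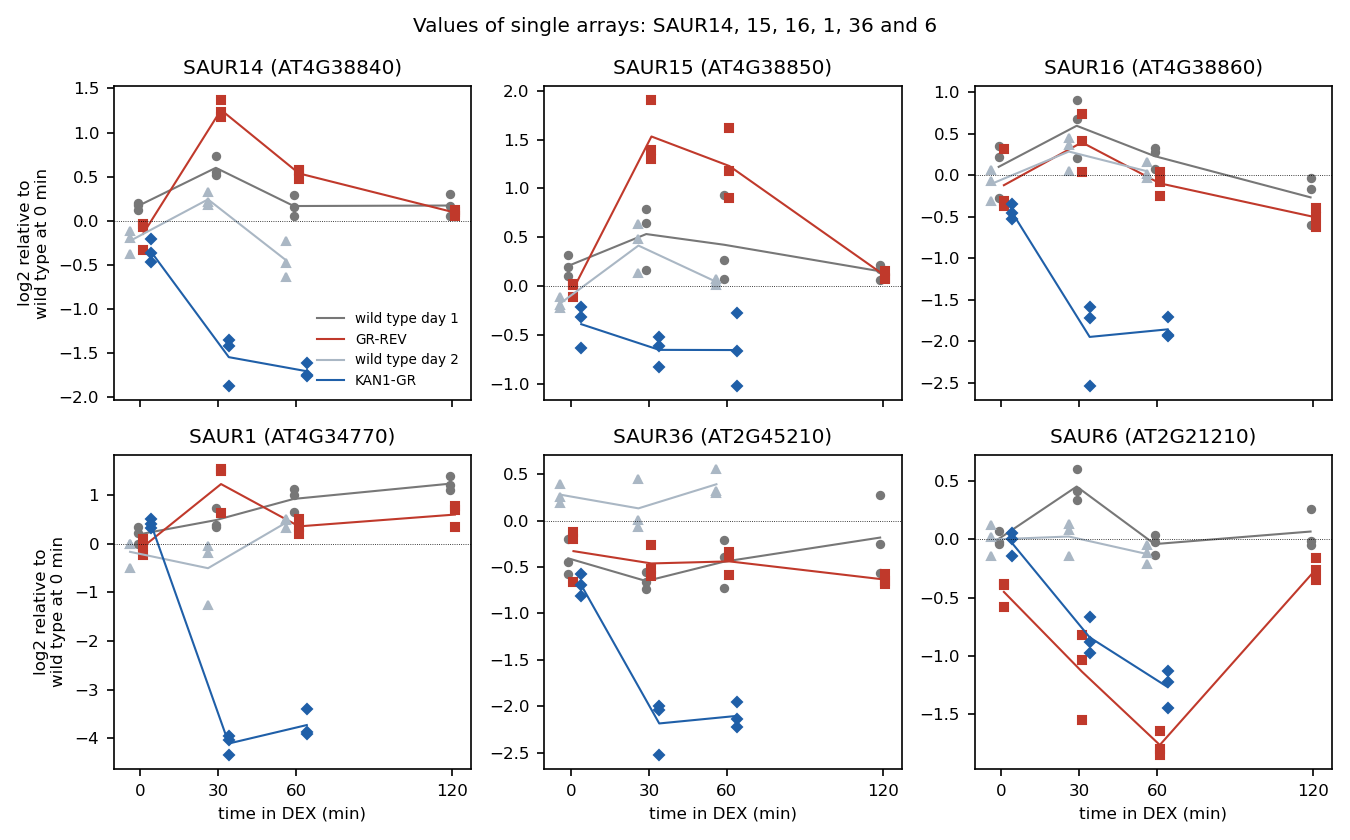
Values of single arrays for SAUR14, SAUR15, SAUR16, SAUR1, SAUR36 and SAUR6 against minutes in DEX, with lines through the means of 3 arrays per group; the vertical axis is log2 relative to untreated wild type and differs between panels. SAUR1 drops to between -4.34 and -3.40 in KAN1-GR with DEX, and SAUR6 is the panel in which both lines go down.

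SAUR1 (AT4G34770), also on chromosome 4, had the largest change of any member. In KAN1-GR it read 0.39, 0.33 and 0.50 before DEX, -4.34, -3.95 and -4.03 at 30 min and -3.86, -3.40 and -3.92 at 60 min. Day 2 wild type read 0.00, 0.00 and -0.51 at 0 min, -0.06, -0.20 and -1.26 at 30 min and 0.50, 0.31 and 0.48 at 60 min. The response was -4.18 (SE 0.32, adjusted p = 2.15e-10) at 30 min and -4.73 (adjusted p = 5.28e-12) at 60 min. Relative to the change of wild type these are 18.1-fold and 26.6-fold falls. The line itself did not fall further, as all 3 KAN1-GR arrays at 60 min read above those at 30 min. Day 2 wild type was higher at 60 than at 30 min, which enters the larger response. The smallest response in a fit that left out 1 array was -3.95 at 30 min.

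SAUR1 went the other way in wild type. The wild-type change averaged over both days was 0.67 (SE 0.16, adjusted p = 0.0222) at 60 min, and on day 1 it was 1.05 (adjusted p = 0.00518) at 120 min. Those day 1 arrays read 0.00, 0.22 and 0.34 at 0 min and 1.09, 1.38 and 1.21 at 120 min. In GR-REV SAUR1 read -0.23, -0.06 and 0.09 before DEX and 0.64, 1.53 and 1.497 at 30 min, a response of 0.99 that missed the threshold (adjusted p = 0.151). Its response at 120 min was -0.38, and the difference between 120 and 30 min was -1.37 (adjusted p = 0.0178).

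SAUR50 (AT4G34760), the neighbour of SAUR1 and known as a light-induced growth gene of cotyledons, did not follow it. Its KAN1-GR responses were 0.06 and -0.17, neither past the threshold. In GR-REV it moved from a response of -0.47 at 30 min to 0.66 at 120 min, and that difference of 1.13 (SE 0.20, adjusted p = 0.00117) passed, while neither response alone did. Comparing the 120 and 30 min responses of GR-REV, 5 of 29 members passed, against 1.54% of all tested probe sets (0.378% higher, 1.16% lower). SAUR6 and SAUR50 were higher at 120 min and SAUR1, SAUR14 and SAUR15 lower. In fits that left out 1 array the SAUR15 difference was lost in 8 of 12 (adjusted p up to 0.180) and that of SAUR1 in 6 of 12 (up to 0.0691). Under quantile normalisation SAUR15 (adjusted p = 0.844), SAUR14 (-0.31, adjusted p = 0.897) and SAUR1 (adjusted p = 0.0504) missed the threshold, and SAUR15 missed it also with median centring and with all probe sets tested.

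SAUR6 (AT2G21210) on chromosome 2 was the 1 member that fell in both lines, at both 30 and 60 min. In GR-REV it read -0.39, -0.58 and -0.38 before DEX, -1.56, -0.82 and -1.03 at 30 min, -1.65, -1.85 and -1.80 at 60 min and -0.16, -0.26 and -0.35 at 120 min. In KAN1-GR it read 0.06, -0.15 and 0.01, then -0.88, -0.98 and -0.66, then -1.13, -1.45 and -1.23. Wild type of day 1 ranged from -0.14 to 0.61 and that of day 2 from -0.21 to 0.13 over all times, so no line array with DEX at 30 or 60 min overlaps wild type. The GR-REV responses were -1.14 (SE 0.18, adjusted p = 0.000326) and -1.27 (adjusted p = 2.99e-05), and at 120 min 0.13. The KAN1-GR responses were -0.84 (adjusted p = 0.00579) and -1.12 (adjusted p = 7.68e-05). The lines differed by -0.29 at 30 min and -0.15 at 60 min, neither past the threshold. All 4 calls held under quantile normalisation, and the one for GR-REV at 30 min was lost when only the arrays compared were fitted (adjusted p = 0.0523).

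SAUR12 (AT2G21220), in the same cluster, fell in GR-REV at 60 min. Its GR-REV arrays read 0.93, 1.19 and 0.95 before DEX, 0.46, 1.08 and 1.21 at 30 min and 0.26, -0.22 and 0.38 at 60 min, while wild type of day 1 read 0.93, 1.33 and 1.38 at 60 min. The response was -1.41 (SE 0.33, adjusted p = 0.00815), and it missed the threshold under quantile normalisation (adjusted p = 0.300) and with only the arrays compared. In KAN1-GR the response was 1.04 and just missed (adjusted p = 0.0507). The difference between the lines was -2.45 (SE 0.46, adjusted p = 0.000657) at 60 min, the most negative of the 29.

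**Figure D3:**
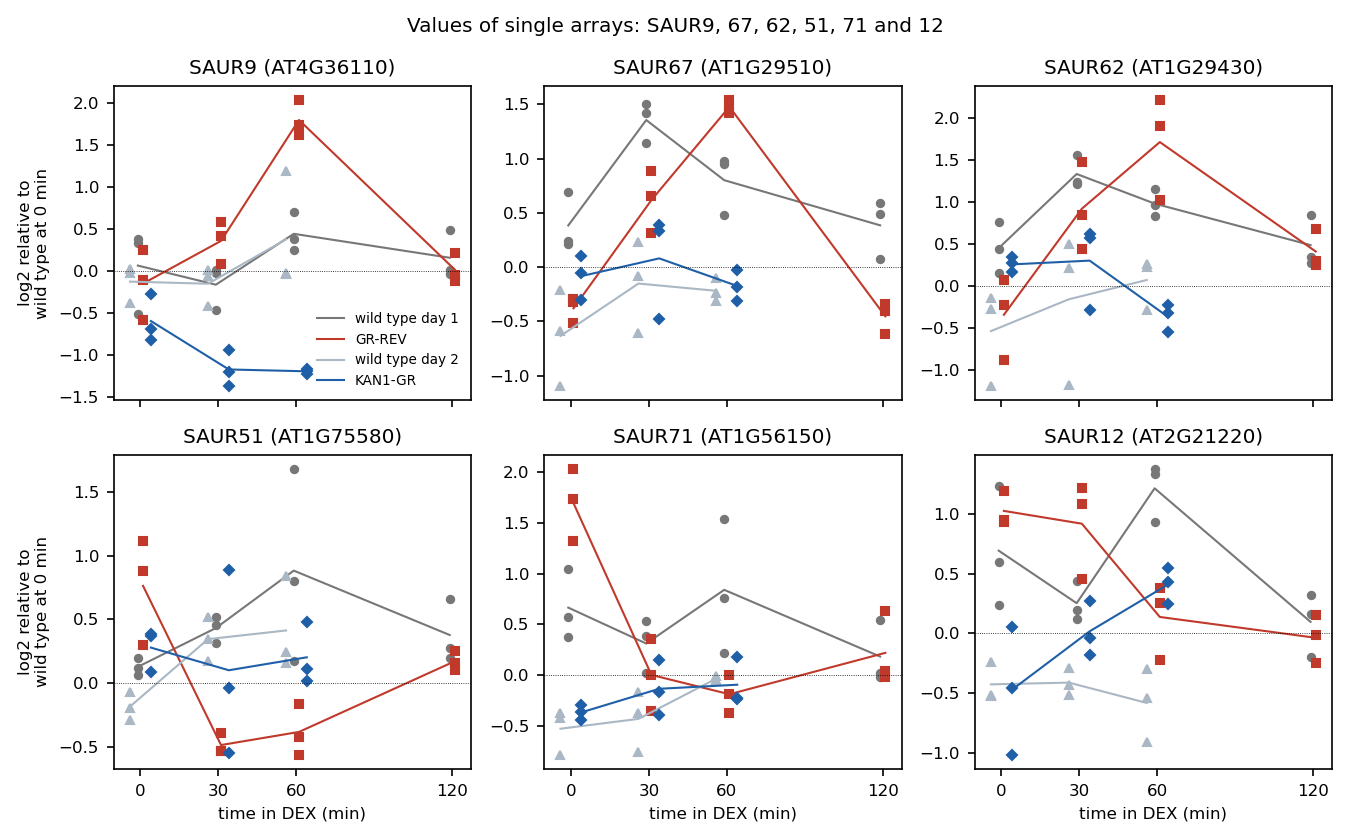
Values of single arrays for SAUR9, SAUR67, SAUR62, SAUR51, SAUR71 and SAUR12 against minutes in DEX, with lines through the means of 3 arrays per group; the vertical axis is log2 relative to untreated wild type and differs between panels. SAUR9 in GR-REV peaks at 60 min (1.62 to 2.03), and SAUR71 in GR-REV starts from 1.32 to 2.03 before DEX.

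SAUR9 (AT4G36110), whose protein is known to inhibit PP2C.D phosphatases, was the member that rose most in GR-REV at 60 min. It read -0.58, 0.24 and -0.10 before DEX, 0.41, 0.58 and 0.08 at 30 min, 2.03, 1.74 and 1.62 at 60 min and -0.11, 0.21 and -0.05 at 120 min. The 60 min arrays lie above all other arrays of the series for this probe set. The highest of those was 1.19, on a wild-type array of day 2 at 60 min. The response was 1.57 (SE 0.36, adjusted p = 0.00756). Under quantile normalisation it was 1.11 (adjusted p = 0.274). In KAN1-GR all 6 arrays with DEX read between -1.37 and -0.94, below every KAN1-GR array before DEX, but the response of -1.10 at 60 min missed the threshold (adjusted p = 0.0613). The lines differed by 2.66 (SE 0.51, adjusted p = 0.000723).

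The SAUR62 cluster on chromosome 1 (AT1G29430 to AT1G29510) includes SAUR63, known to promote hypocotyl and stamen filament elongation. In GR-REV at 60 min 2 of its 6 tested genes passed the threshold, beside 4.36% of all tested probe sets. These were SAUR67 (1.44, SE 0.31, adjusted p = 0.00344) and SAUR65 (0.66, adjusted p = 0.0253), and the 6 responses ran from 0.36 to 1.52. Before DEX all 6 read lower in GR-REV than in wild type (median -0.64, from -0.79 to -0.14), and 1 of 6 passed there. Set against the 60 min wild type by itself, the 6 differences ran from -0.09 (SAUR66) to 0.73 (SAUR62), and again SAUR65 and SAUR67 passed. SAUR67 read -0.52, -0.32 and -0.30 in GR-REV before DEX, 0.31, 0.88 and 0.66 at 30 min, 1.42, 1.54 and 1.48 at 60 min and -0.34, -0.61 and -0.41 at 120 min. Wild type of day 1 read 0.21, 0.24 and 0.70, then 1.14, 1.51 and 1.42, then 0.48, 0.98 and 0.95, then 0.07, 0.59 and 0.49. Wild type therefore reached at 30 min the level that GR-REV reached at 60 min.

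The response of SAUR67 rests in part on its lower start in GR-REV, where it was -0.76 relative to wild type at 0 min (adjusted p = 0.0140). Set against wild type at 60 min alone the SAUR67 difference was 0.68 (adjusted p = 0.0339). SAUR65 at 60 min read 0.16, 0.38 and 0.80 in GR-REV. The highest GR-REV array at 30 min also read 0.16, and the KAN1-GR arrays at 30 min read -0.05, 0.67 and -0.07. The SAUR65 call was lost in 5 of 12 fits that left out 1 array (adjusted p up to 0.127). The SAUR67 and SAUR65 calls were both lost under quantile normalisation. SAUR62 had a GR-REV response of 1.52 that missed the threshold (adjusted p = 0.0678) and a KAN1-GR response of -1.23 (adjusted p = 0.137), and the difference between the lines of 2.75 (SE 0.68, adjusted p = 0.00955) passed. SAUR67 differed between the lines by 1.95 (adjusted p = 0.00388). In KAN1-GR none of the 6 passed in either direction (0 of 6 by limma at both times), with responses from -1.23 to 0.02 at 60 min. Over all tested probe sets 2.4% and 6.84% passed there at 30 and 60 min.

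SAUR51 (AT1G75580) and SAUR71 (AT1G56150) fell in GR-REV from a level that was above zero before DEX. SAUR71 belongs to the SAUR41 clade, which is known for roles in cell expansion. SAUR71 read 1.32, 2.03 and 1.73 before DEX, -0.36, 0.00 and 0.36 at 30 min, 0.00, -0.19 and -0.38 at 60 min and -0.02, 0.04 and 0.64 at 120 min. Wild type of day 1 read 1.04, 0.38 and 0.58 at 0 min and 0.22, 0.76 and 1.54 at 60 min. The response was -1.34 (SE 0.35, adjusted p = 0.0437) at 30 min and -2.06 (adjusted p = 0.000284) at 60 min. With only the wild type of that time as reference, SAUR71 differed by -0.31 (adjusted p = 0.548) at 30 min and by -1.03 (adjusted p = 0.00370) at 60 min, so the 30 min value rests on the 0 min arrays.

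SAUR51 read 0.30, 0.88 and 1.11 before DEX, -0.53, -0.53 and -0.39 at 30 min, -0.42, -0.16 and -0.56 at 60 min and 0.10, 0.26 and 0.16 at 120 min. Wild type of day 1 stayed above zero at all times, from 0.07 to 1.68, so the GR-REV arrays at 30 and 60 min do not overlap it. The response was -1.55 (SE 0.38, adjusted p = 0.0279) at 30 min and -1.90 (adjusted p = 0.00194) at 60 min. At 30 min the call was lost in 10 of 12 fits that left out 1 array for SAUR51 (adjusted p up to 0.0775) and in 8 of 12 for SAUR71 (up to 0.142). Under quantile normalisation, of these 4 calls, SAUR51 at 60 min stood (adjusted p = 0.0275).

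SAUR36 (AT2G45210), an auxin-induced gene known to promote leaf senescence, fell in KAN1-GR. It read -0.81, -0.58 and -0.69 before DEX, -1.998, -2.52 and -2.04 at 30 min and -2.14, -1.96 and -2.22 at 60 min, while wild type of day 2 stayed between -0.06 and 0.56. The arrays with DEX lie apart from those without, and the line already stood below its wild type before DEX, by a difference of -0.98 (adjusted p = 0.000497). The response was -1.34 (SE 0.25, adjusted p = 0.000775) at 30 min and -1.52 (adjusted p = 5.78e-05) at 60 min. Under quantile normalisation the 30 min call was lost (adjusted p = 0.122). In GR-REV all 12 arrays read between -0.68 and -0.12, and the lines differed by 1.46 (adjusted p = 0.0149) and 1.45 (adjusted p = 0.00737).

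SAUR78 (AT1G72430), linked to ethylene-dependent growth, had KAN1-GR responses of -0.97 (SE 0.18, adjusted p = 0.000979) at 30 min and -0.69 (adjusted p = 0.0137) at 60 min. The 60 min call was lost under quantile normalisation (adjusted p = 0.383) and the 30 min call with only the arrays compared (adjusted p = 0.0732). SAUR32 (AT2G46690), linked to maintenance of the apical hook, was the 1 member that rose in KAN1-GR. It read -0.32, -0.19 and -0.41 before DEX, 0.15, 0.04 and 0.24 at 30 min and 0.38, 0.11 and 0.53 at 60 min, where wild type of day 2 read -0.37, -0.26 and -0.25. The SAUR32 response was 0.96 (SE 0.21, adjusted p = 0.00730) at 30 min and 0.98 (adjusted p = 0.00264) at 60 min. From its own 0 min alone the 30 min rise was 0.45 (adjusted p = 0.0698), because wild type moved down at the same time.

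**Figure D4:**
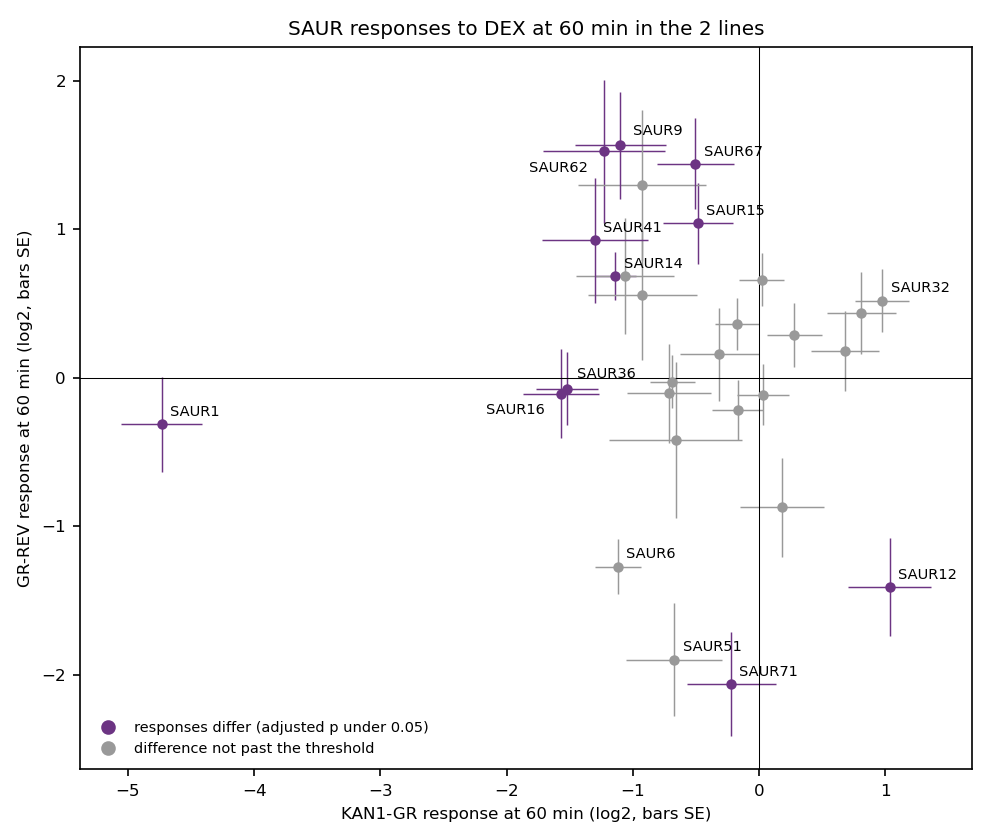
GR-REV response against KAN1-GR response at 60 min (log2) for the 29 tested SAUR probe sets, with standard errors of the fit as bars; purple points are the 11 whose responses differ between the lines. SAUR1 lies far to the left at -4.73, SAUR6 lies where both are negative, and SAUR12 is the purple point at lower right.

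GR-REV called 9 members at any time and KAN1-GR called 7, with 2 in both: SAUR14, in opposite directions, and SAUR6, in the same direction. The 2 shared members are 40% of the GR-REV calls and 28.6% of the KAN1-GR calls at 30 min, beside 17.0% and 9.82% over all tested probe sets. At 60 min they are 22.2% and 28.6%, beside 25.3% and 16.1%. Of all tested probe sets 38 were called in both lines at 30 min, 30 of them in opposite directions, and 178 at 60 min, 96 of them in opposite directions. The direct contrast of the 2 responses called 5 of 29 members at 30 min, against 2.25% of all tested probe sets (1.56% higher, 0.688% lower), and all 5 (SAUR1, SAUR14, SAUR15, SAUR16 and SAUR36) were higher in GR-REV. At 60 min it called 11 of 29, against 6.36% (3.08% higher, 3.28% lower). Beyond those already given, SAUR41 (AT1G16510) differed by 2.23 (SE 0.60, adjusted p = 0.0174) and SAUR71 by -1.84 (adjusted p = 0.0186). For SAUR41 neither response passed alone: 0.93 in GR-REV (limma, adjusted p = 0.269) and -1.299 in KAN1-GR (adjusted p = 0.0572). Its day 1 wild type went down in the mean, from 1.03, 1.03 and 0.89 at 0 min to 0.74, 1.07 and 0.13 at 60 min. The day 2 wild type went up, from -0.89, -0.89 and -1.05 to -0.72, -0.13 and 0.26. Both wild-type changes enter the 2.23. SAUR1 differed by 5.17 and 4.42, SAUR16 by 1.92 and 1.47, and SAUR15 by 2.09 and 1.52, at 30 and 60 min. The SAUR16 difference at 60 min was lost in 11 of 24 fits that left out 1 array (adjusted p up to 0.0702) and with all probe sets tested. Under quantile normalisation the differences lost were SAUR16 (adjusted p = 0.0820) and SAUR36 (0.270) at 30 min. At 60 min those of SAUR16 (0.166), SAUR15 (0.157), SAUR36 (0.118), SAUR9 (0.0601) and SAUR71 (0.622) were lost. The samples of the 2 lines and their wild types are separate.

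The 15 tested members called in neither line were SAUR8, SAUR23, SAUR30, SAUR31, SAUR37, SAUR41, SAUR50, SAUR55, SAUR59, SAUR62, SAUR63, SAUR64, SAUR66, SAUR72 and SAUR76. Their responses reached from -0.87 to 1.52 in GR-REV and from -1.299 to 0.81 in KAN1-GR at 60 min. SAUR23, the 1 analysed member of the SAUR19 cluster known for cell expansion, had responses of 0.69 and -1.06 at 60 min in GR-REV and KAN1-GR, neither past the threshold (adjusted p = 0.430 and 0.104).

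Wild type also changed after DEX was added. At 30 min, averaged over both days, 6 of 29 members passed against 3.87% of all tested probe sets (2.02% higher, 1.85% lower). SAUR63 (0.95, SE 0.25, adjusted p = 0.0269), SAUR67 (0.73, adjusted p = 0.00438) and SAUR14 (0.45, adjusted p = 0.000916) rose, and SAUR55 (-1.06, adjusted p = 0.0167), SAUR37 (-0.59, adjusted p = 0.00840) and SAUR32 (-0.48, adjusted p = 0.00633) fell. Of the root hair markers EXPA7 was lower at the same time (-1.24). SAUR63 read -0.08, 0.52 and 0.65 on day 1 at 0 min and 1.35, 1.38 and 1.52 at 30 min. On day 2 it read 0.08, -0.44 and -0.82 and then 0.93, 0.90 and -0.45. The day 1 arrays separate, and 1 day 2 array at 30 min lies within the range of the 0 min arrays. The SAUR63 call was lost in 6 of 12 fits that left out 1 array (adjusted p up to 0.0889) and the SAUR55 call in 4 (up to 0.0532).

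SAUR55 read -0.71, -0.93 and -0.20 on day 1 at 0 min and -1.40, -1.58 and -1.34 at 30 min, and on day 2 it read 1.14, 1.00 and 0.20 and then 0.09, -0.25 and -1.35. It was lower at 30 min on both days, from starting levels that do not overlap. SAUR37 read -0.36, -0.04 and 0.04 on day 1 at 0 min and -0.44, -0.86 and -1.03 at 30 min, and on day 2 0.36, 0.41 and -0.36 and then -0.37, 0.05 and -0.83, where the groups overlap. SAUR32 fell from -0.65, -0.48 and 0.03 to -0.84, -1.01 and -0.65 on day 1 and from 0.03, 0.10 and -0.03 to -0.47, -0.51 and -0.43 on day 2. Fitted on day 1 alone 7 members passed at 30 min, and on day 2 alone 1 passed.

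At 60 min 2 of 29 members passed in wild type (SAUR1 and SAUR32, -0.41, adjusted p = 0.0321), against 2.33% of all, and at 120 min 2 of 29 (SAUR1 and SAUR59, 0.85, adjusted p = 0.0300), against 5.13%. SAUR59 read -0.83, -0.43 and -0.03 at 0 min and 0.14, 0.70 and 0.43 at 120 min, groups that do not overlap. The SAUR32 call at 60 min was lost in 8 of 12 fits that left out 1 array, the SAUR1 call at 60 min in 3 of 12, and the SAUR59 call at 120 min in 4 of 6. Between the days, the 30 min change of SAUR41 differed by -2.06 (SE 0.42, adjusted p = 0.00487), which is 1 of 29 against 3.45% of all. SAUR41 read 1.03, 1.03 and 0.89 on day 1 at 0 min and -0.16, -0.04 and -0.59 at 30 min, but -0.89, -0.89 and -1.05 and then 0.20, 0.04 and -0.63 on day 2. At 60 min 0 of 29 differed between the days by limma, against 1.4% of all, and 5 had an unadjusted p under 0.05.

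Before DEX, 8 of 29 members differed between GR-REV and its wild type, against 15.9% of all tested probe sets (7.77% higher, 8.08% lower). SAUR71 was higher (1.03, adjusted p = 0.00382), and SAUR32 (-0.93, adjusted p = 3.6e-05), SAUR67, SAUR37 (-0.64), SAUR31 (-0.62), SAUR8 (-0.57), SAUR6 (-0.46) and SAUR50 (-0.45) were lower. Of 6 fits that left out 1 array, the call was lost in 4 for SAUR8, in 3 each for SAUR37 and SAUR50 and in 2 each for SAUR67 and SAUR6. Without wild-type day 1 replicate 2 the SAUR8 value was -0.18 (adjusted p = 0.512). Under quantile normalisation the SAUR71 difference was 0.19 (limma, adjusted p = 0.810). SAUR8, SAUR6, SAUR31 and SAUR37 also missed the threshold there (limma, adjusted p from 0.0642 to 0.233). With only the arrays compared, SAUR71, SAUR8, SAUR6, SAUR31 and SAUR50 missed it. The root hair markers and CA1 were lower in the same comparison, as given above. KAN1-GR differed in 3 of 29, against 10.7% (4.94% higher, 5.78% lower): SAUR36 was lower, SAUR59 was lower (-0.73, adjusted p = 0.0415) and SAUR23 was higher (0.85, adjusted p = 0.0426). The SAUR59 and SAUR23 calls were lost in 4 and 5 of 6 fits that left out 1 array.

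Untreated wild type of the 2 days differed in 13 of 29 members, against 22.9% of all tested probe sets (11.8% higher, 11.2% lower). SAUR41 (1.92), SAUR71 (1.20), SAUR12 (1.12), SAUR67 (1.02), SAUR62 (0.99), SAUR72 (0.71), SAUR50 (0.63) and SAUR14 (0.39) were higher on day 1. SAUR55 (-1.40), SAUR59 (-0.82), SAUR36 (-0.69), SAUR31 (-0.60) and SAUR76 (-0.60) were lower. Of 6 fits that left out 1 array, the call was lost in 5 for SAUR76 (adjusted p up to 0.263), in 3 for SAUR62 (up to 0.238) and in 2 each for SAUR72, SAUR59 and SAUR14. Without wild-type day 1 replicate 1 the SAUR72 value was 0.43 (adjusted p = 0.243). All 3 root hair markers were lower on day 1 as well (-1.55, -1.11 and -2.54).

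Of the partners of SAUR proteins, the PP2C.D phosphatase gene AT5G02760 fell in KAN1-GR together with SAUR1, SAUR14 and SAUR16. It read 0.09, 0.17 and 0.50 before DEX, -0.52, -0.97 and -0.52 at 30 min and -1.70, -0.61 and -1.32 at 60 min. Wild type of day 2 rose meanwhile. It read -0.27, -0.16 and -0.44 at 0 min, 0.14, 0.16 and -0.29 at 30 min and 0.90, 0.38 and 0.47 at 60 min. The AT5G02760 response, which includes that wild-type rise, was -1.21 (SE 0.32, adjusted p = 0.0298) at 30 min and -2.33 (adjusted p = 4.23e-06) at 60 min. In GR-REV the response was 1.08 (adjusted p = 0.0493) at 120 min. AT4G38520 fell in GR-REV (-0.70 at 60 min and -0.59 at 120 min). Of the 9 PP2C.D genes tested, 1 passed in KAN1-GR at each time and 0, 1 and 2 in GR-REV at 30, 60 and 120 min. Over all tested probe sets 2.4% and 6.84% passed in KAN1-GR and 1.38%, 4.36% and 3.84% in GR-REV. At these shares, counts in lists this short say little about the genes, and the same holds for the H+-ATPases. None of the 8 tested plasma membrane H+-ATPase genes (0 of 8 by limma at every time), with 3 of the 11 not tested, passed in a response of either line, and their responses lay between -0.48 and 0.42.

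The auxin receptor list (0 of 4 genes) and the list of activating auxin response factors (0 of 5) had no call in a line response by limma. Over all tested probe sets 1.38% to 6.84% passed in these responses, so no call in lists this short says little about these genes. Of 4 probe sets for growth factors known to act upstream of SAUR genes, the one shared by BZR1 and BES1, brassinosteroid-regulated factors, rose in GR-REV at all 3 times (0.66, 0.99 and 0.61), from a level below wild type at 0 min (-0.36, adjusted p = 0.0168). PIF3, a phytochrome-interacting factor, fell in KAN1-GR (-1.296 and -1.63, adjusted p = 7.14e-05 and 6.1e-07) and had GR-REV responses of -0.80 and -0.82 at 60 and 120 min. It was already higher than wild type in GR-REV before DEX (0.71, adjusted p = 0.000455). Its GR-REV arrays read 0.55, 0.68 and 0.68 at 0 min and 0.20, 0.17 and -0.07 at 120 min, where day 1 wild type read 0.22, 0.31 and 0.09. PIF4 and PIF5 did not pass in a line response, but the 4 GR-REV responses at 30 min ran from -0.04 to 1.00 (median 0.76). For 120 less 30 min in GR-REV, 3 of the 4 probe sets passed by limma, all lower (range of the 4, -1.38 to -0.05), against 1.54% of all tested. Between the lines at 30 min 2 of 4 passed, both higher in GR-REV (range of the 4, 0.94 to 1.25), against 2.25%. Of 7 other auxin-induced genes tested (of 10), IAA3 (-1.29 and -1.37, locus symbol SHY2) and IAA1 (-0.99 at 60 min) fell in KAN1-GR. The probe set shared by GH3.2 and AT1G59500 rose there at 60 min (2.04, adjusted p = 0.00193), and GH3.5 (symbol WES1) had a GR-REV response of -0.99 at 60 min (adjusted p = 0.0464). Its GR-REV arrays read -0.60, -0.28 and -0.51 before DEX and -0.75, -0.53 and -0.55 at 60 min, while day 1 wild type went from -0.91, -0.15 and -0.18 to 0.45, 0.52 and 0.32. These auxin-induced genes therefore did not move in 1 direction in KAN1-GR.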

How the data were processed

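Total RNA of the 42 samples was hybridised to Affymetrix ATH1 arrays. The deposited values are log2 expression made by the authors with GCRMA, per the submitters' processing notes. The version is not given in the sources used here, and the log base is taken from the method. Each probe set is centred on the median of the 6 untreated wild-type arrays (largest median 5e-07). The 2 deposited tables hold the same values (largest difference 0). The authors also deposited p-values of a two-way ANOVA, a unit other than expression, which served only to choose the tested probe sets: 16164 have one, less 35 controls.

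Gene symbols came from the RefSeq table of assembly TAIR10.1, which matched all 54 loci. Promoter and protein sequences were not used here, so the planned motif count was not made. No depth applies to arrays, and the 3 arrays per group limit the precision. Flasks were separate per the labels' protocols.

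Group means of all 42 arrays were estimated together in limma 3.58.1 under R 4.3.3 (28 residual and 3.92 prior degrees of freedom), a step tested on simulated data. Moderated two-sided tests were adjusted by Benjamini-Hochberg over 16129 probe sets, with a threshold of 0.05, in 16 comparisons. The wild-type responses at 30 and 60 min are means of both days. Array-by-array values are given for up to 3 members that rose and 3 that fell most in each response past the threshold, and for members shown beside them. SAUR50, SAUR62 and SAUR41, and AT5G02760 among the lists, were chosen for fuller values after they were seen. The members, lists and tests were chosen with earlier results of these data known. Alternatives were quantile normalisation, median centring, all probe sets, array weights, a block for replicate number, fewer arrays in the fit, each array left out, a single reference and each day alone.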

Additional observations from a re-analysis of the deposited data

Results flagged for a closer look

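The responses of GR-REV and KAN1-GR differed past the limma threshold for 5 members at 30 min: SAUR1 by 5.17, SAUR14 by 2.64, SAUR15 by 2.09, SAUR16 by 1.92 and SAUR36 by 1.46, all on the log2 scale and GR-REV less KAN1-GR. At 60 min they differed for SAUR1 by 4.42, SAUR62 by 2.75, SAUR9 by 2.66, SAUR41 by 2.23, SAUR67 by 1.95, SAUR14 by 1.82, SAUR15 by 1.52, SAUR16 by 1.47, SAUR36 by 1.45, SAUR71 by -1.84 and SAUR12 by -2.45.

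Within GR-REV the response at 120 min differed from that at 30 min for SAUR6 by 1.27, SAUR50 by 1.13, SAUR14 by -0.74, SAUR15 by -1.05 and SAUR1 by -1.37. The 0 min arrays are common to both responses and cancel in this difference. In wild type the 30 min change of SAUR41 differed between day 1 and day 2 by -2.06.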

How the results depend on the processing

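Of 29 named changes, recomputed 564 times, 479 values stayed past the threshold, 85 did not, 0 changed sign, and 10 changes passed in every recomputation. Counts of members past the threshold moved as follows; where no cause is plain from the setting, the cause was not tested. Quantile normalisation gave 1 (from 5) and 2 (from 9) in GR-REV at 30 and 60 min, 7 (from 11) for the lines at 60 min, 2 (from 5) for GR-REV at 120 less 30 min, 5 (from 2) and 5 (from 2) in wild type at 60 and 120 min, 4 (from 1) and 3 (from 0) for the days at 30 and 60 min, 3 (from 8) in GR-REV and 11 (from 3) in KAN1-GR before DEX. Array weights gave 1 (from 0) in GR-REV at 120 min, 12 and 11 (from 7) in KAN1-GR, 13 (from 6), 7 (from 2) and 1 (from 2) in wild type at 30, 60 and 120 min, 5 (from 1) and 1 (from 0) for the days, and 12 (from 3) in KAN1-GR before DEX. With the arrays compared only, which leaves fewer degrees of freedom, there were 2 in GR-REV at 30 min, 3 for 120 less 30 min, 1 and 1 in wild type at 60 and 120 min and 3 in GR-REV before DEX. With only the wild type of that time as reference, GR-REV had 8 and 6 at 30 and 120 min and KAN1-GR 13 at 60 min. From its own 0 min alone GR-REV had 11 and 5 at 30 and 120 min. Median centring gave 1 in GR-REV at 120 min, and all probe sets 1 in KAN1-GR before DEX. Day 2 alone gave 1 in wild type at 30 min, and 0 at 60 min, where day 1 alone gave 1.

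Replicate numbers were not taken as pairs: deviations of same-numbered GR-REV and day 1 wild-type arrays correlated from -0.311 to 0.168, with 1 of 12 over 0.1. With the replicate block the count was 8 (from 3) in KAN1-GR before DEX and 1 (from 2) in wild type at 60 min. The other 14 counts stayed within 1.5 times.

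Leaving out 1 array gave 2 to 5 members in GR-REV at 30 min, 7 to 10 at 60 min and 0 to 1 at 120 min, 7 to 8 and 7 to 9 in KAN1-GR, 5 to 6 and 10 to 13 between lines, 3 to 5 for 120 less 30 min, 4 to 7, 0 to 3 and 1 to 4 in wild type, 1 to 2 and 0 to 1 between days, and before DEX 5 to 7 in GR-REV, 1 to 5 in KAN1-GR and 9 to 13 between days. For GR-REV at 30 min the lowest, 2, came without wild-type day 1 replicate 1 at 30 min. It was 3 without wild-type replicate 2 or 3 at 0 min, wild-type replicate 3 at 30 min, GR-REV replicate 2 or 3 at 0 min, or GR-REV replicate 2 at 30 min. In GR-REV before DEX it was 5 without wild-type replicate 3 or GR-REV replicate 2. In KAN1-GR before DEX it was 5 without wild-type replicate 4, and 1 without wild-type replicate 5 or 6 or KAN1-GR replicate 1 or 3. For 120 less 30 min it was 3 without wild-type replicate 1 or 2 at 30 min or 2 at 120 min, GR-REV replicate 3 at 30 min or 2 at 120 min. In wild type at 60 min it was 0 without day 2 replicate 6 at 0 min, day 1 replicate 2 or day 2 replicate 4 at 60 min. It was 1 there without day 1 replicate 3 or day 2 replicate 5 at 0 min, or day 2 replicate 5 or 6 at 60 min. In wild type at 120 min it was 4 without replicate 3 at 0 min, and 1 without replicate 1 or 2 at 0 min or 2 or 3 at 120 min. In GR-REV at 120 min it was 1 without wild-type replicate 3 or GR-REV replicate 1 at 0 min. Between days it was 2 at 30 min without day 2 replicate 4 at 0 min, and 1 at 60 min without that array or day 1 replicate 3 at 0 min.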
